A study of Mus musculus with 2 samples.

Results

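The genes that write and oxidise cytosine methylation were examined as DNA regions: the 6 genes Tet1, Tet2, Tet3, Dnmt1, Dnmt3a and Dnmt3b, each as 1 window on the mouse genome build mm9, 459 kb in all. The members were chosen by gene function, but with earlier results of these data known. The windows are rounded to the nearest kb around each gene, and their limits use no measured value. The data come from hydroxymethylated DNA immunoprecipitation sequencing (hMeDIP-seq), in which an antibody against 5-hydroxymethylcytosine (5hmC) recovers DNA fragments that carry the mark. The groups were 1 hMeDIP library made with an Active Motif 5hmC antibody and 1 input library made without antibody, both from kidneys of male C57BL/6 mice aged 6 weeks with no genotype change or treatment in the labels. The labels give no number of animals, and whole kidney mixes many cell types, so a low level in all cells and a high level in few cells cannot be told apart.

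In mammalian DNA, methyl groups are placed on cytosine almost only where it is followed by guanine (CpG). DNMT3A and DNMT3B are the de novo methyltransferases, and DNMT1 copies methylation to the new strand when DNA is replicated. The TET enzymes oxidise 5-methylcytosine to 5hmC and to further oxidised bases that can be replaced by unmethylated cytosine. In adult tissues 5hmC is usually found in gene bodies, and CpG-rich start regions usually carry little of it. The values below describe the mark on the DNA of these genes, not their RNA or protein, which were not measured.

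Since each group is a single library (1 hMeDIP, 1 input), replicate error is unknown and no test was made between them. The 95% intervals given below cover counting error only, and reads that carry no molecular identifier cannot be taken as separate molecules. Depth was 11424027 fragments for hMeDIP and 8316507 for input. A fragment was counted where its midpoint lay, and the 5hmC ratio sets the share of the hMeDIP library that fell in a region over the share of the input library, so 1 is the genome-wide mean. The windows held 280 to 2113 hMeDIP fragments and 135 to 392 input fragments.

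The CpG content around the start sites differed widely between these genes, and a set of start regions is shown because CpG is the substrate of both families. RefSeq lists 10 start regions for the 6 genes on build GRCm38.p6, each with 250 bases before and 50 after the start. These positions were not carried over to mm9. The start regions below are written 5′ to 3′ on the strand of the gene, with every CpG in capitals.
Tet2, chr3:133544341-133544640, minus strand: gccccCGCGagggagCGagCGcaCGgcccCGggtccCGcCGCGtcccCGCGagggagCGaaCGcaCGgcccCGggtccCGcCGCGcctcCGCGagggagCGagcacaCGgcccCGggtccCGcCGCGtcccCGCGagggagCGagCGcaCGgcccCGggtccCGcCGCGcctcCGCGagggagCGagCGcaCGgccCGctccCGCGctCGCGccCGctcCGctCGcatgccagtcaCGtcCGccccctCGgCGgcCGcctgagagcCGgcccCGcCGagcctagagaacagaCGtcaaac
Dnmt1 upstream start, chr9:20959839-20960138, minus strand: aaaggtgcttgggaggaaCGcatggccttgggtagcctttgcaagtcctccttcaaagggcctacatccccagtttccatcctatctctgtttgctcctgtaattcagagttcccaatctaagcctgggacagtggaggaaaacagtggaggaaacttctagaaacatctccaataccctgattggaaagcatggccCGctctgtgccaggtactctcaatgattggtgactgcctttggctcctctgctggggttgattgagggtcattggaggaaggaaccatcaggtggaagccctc
Dnmt1 proximal start, chr9:20952574-20952873, minus strand: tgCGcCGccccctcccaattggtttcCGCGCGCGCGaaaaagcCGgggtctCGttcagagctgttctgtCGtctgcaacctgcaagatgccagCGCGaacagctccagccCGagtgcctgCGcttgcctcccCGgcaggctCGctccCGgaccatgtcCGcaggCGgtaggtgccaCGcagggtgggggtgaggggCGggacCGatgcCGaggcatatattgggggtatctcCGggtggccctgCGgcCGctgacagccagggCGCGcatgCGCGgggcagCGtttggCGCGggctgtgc
Dnmt3a internal start, chr12:3891494-3891793, plus strand: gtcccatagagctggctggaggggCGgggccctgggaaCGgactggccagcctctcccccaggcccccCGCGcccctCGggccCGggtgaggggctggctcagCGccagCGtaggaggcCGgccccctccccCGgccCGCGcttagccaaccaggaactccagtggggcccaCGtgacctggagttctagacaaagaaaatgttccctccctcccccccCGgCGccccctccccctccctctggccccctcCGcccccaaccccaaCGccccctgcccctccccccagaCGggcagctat
Dnmt3b, chr2:153649199-153649498, plus strand: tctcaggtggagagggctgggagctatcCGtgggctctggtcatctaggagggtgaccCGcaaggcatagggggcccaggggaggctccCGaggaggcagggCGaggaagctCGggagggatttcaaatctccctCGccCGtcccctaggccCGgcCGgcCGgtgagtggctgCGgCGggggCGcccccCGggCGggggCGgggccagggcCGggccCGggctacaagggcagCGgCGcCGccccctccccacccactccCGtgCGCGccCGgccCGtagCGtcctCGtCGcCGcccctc

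The Tet2 start region held 57 CpG, more than 99.8% of the 32851 start regions in the table, whose median was 7. The upstream Dnmt1 start region held 2 CpG, and 14.1% of the table had fewer. The proximal Dnmt1 start, the last of 3 in RefSeq, lay 7.26 kb further into the gene on GRCm38.p6 and held 33 CpG, more than 91.4% of the table. Oocytes are known to start Dnmt1 upstream of the somatic start. The internal Dnmt3a start, 84.8 kb into the gene from the first listed start on GRCm38.p6, held 18 CpG, against 46 and 47 at the pair of overlapping upstream starts. Dnmt3a is known to give a shorter protein from an internal start. The Dnmt3b start region held 30 CpG, that of Tet3 held 22 and that of Tet1 held 17. The windows' 5′ edges on mm9 therefore mark only one of several possible start sites for Dnmt1 and Dnmt3a, and whether the edges of Tet1 and Tet3 fall on a RefSeq start is not known.

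Together the 6 windows held 6085 hMeDIP against 1663 input fragments, 2.66 times the genome-wide mean (2.52 to 2.81). All 6 lay above that mean, and they fell into a high pair, Dnmt3a and Tet3, and 4 lower genes. Among the oxidases, the Tet3 window (chromosome 6, 83312001 to 83410000, minus strand, 98 kb) held 1854 hMeDIP against 375 input fragments. Its ratio was 3.60 (95% interval 3.22 to 4.03). Tet3 is the oxidase known for acting on the paternal genome of the zygote. The Tet2 window (chromosome 3, 133126001 to 133209000, minus strand, 83 kb) held 756 hMeDIP against 289 input fragments, a ratio of 1.90 (1.66 to 2.19). Tet2, often mutated in human blood cancers, encodes the family member without a CXXC DNA-binding domain. The Tet1 window (chromosome 10, 62267001 to 62343000, minus strand, 76 kb) held 668 hMeDIP against 262 input fragments, a ratio of 1.86 (1.61 to 2.15). Tet1 was the first TET enzyme whose oxidase activity was described, and it has a long and a short form. Extending its window to 62372000, the edge of the long form, gave 836 hMeDIP against 326 input fragments, or 1.87 (1.64 to 2.13). The 29 kb between these edges had a ratio of 1.91 (1.42 to 2.59) and 1 peak.

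Among the methyltransferases, the Dnmt3a window (chromosome 12, 3806001 to 3915000, plus strand, 109 kb) held 2113 hMeDIP against 392 input fragments. Its ratio of 3.92 (3.52 to 4.38) was the highest of the 6 windows. On the plus strand alone it was 3.32 (2.84 to 3.89), below the 3.77 (3.22 to 4.43) of Tet3. On the minus strand alone it was 4.53 (3.89 to 5.29), above the 3.42 (2.92 to 4.03) of Tet3. The Dnmt3b window (chromosome 2, 153475001 to 153514000, plus strand, 39 kb) held 280 hMeDIP against 135 input fragments, a ratio of 1.51 (1.23 to 1.87). The Dnmt1 window (chromosome 9, 20711001 to 20765000, minus strand, 54 kb) held 414 hMeDIP against 210 input fragments, a ratio of 1.44 (1.21 to 1.70), the lowest of the 6. The 2 de novo genes thus stood far apart, and among the Tet genes Tet3 stood above the other two. On the fragments of 1 strand alone the Dnmt1 interval reached below 1 on the minus strand (1.24, 0.970 to 1.58) and the Dnmt3b interval on the plus strand (1.29, 0.969 to 1.74).

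In the order of the ratios, Dnmt3a, Tet3, Tet2, Tet1, Dnmt3b and Dnmt1, the clear step was between Tet3 and Tet2. The Tet3 ratio was 1.89 times that of Tet2 (1.58 to 2.26). The other neighbours did not differ beyond counting error: Dnmt3a stood at 1.09 times Tet3 (0.931 to 1.28), and Tet2 at 1.03 times Tet1 (0.838 to 1.26). Tet1 stood at 1.23 times Dnmt3b (0.948 to 1.59), and Dnmt3b at 1.05 times Dnmt1 (0.801 to 1.38). Input density was 3.45 to 3.89 fragments per kb in the 6 windows, whereas hMeDIP density ran from 7.18 per kb in Dnmt3b to 19.4 per kb in Dnmt3a.

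**Figure D1:**
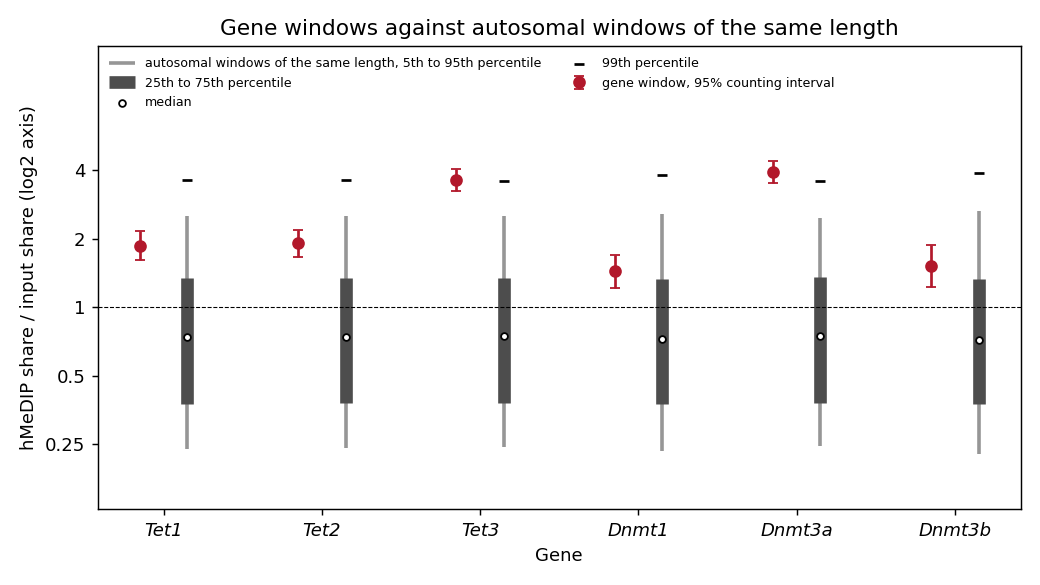
Ratio of hMeDIP share to input share (log2 axis) of each gene window with its 95% counting interval (red), beside the spread of all autosomal windows of the same length (grey and black: 5th to 95th and 25th to 75th percentiles, median and 99th percentile). Dnmt3a at 3.92 and Tet3 at 3.60 stand at or above the 99th percentile of 3.57 and 3.60, and the other genes lie between the 75th and the 95th percentile.

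Each window was then ranked among autosomal windows of its own length laid end to end. Dnmt3a lay at percentile 99.4 of 21481 windows and Tet3 at percentile 99.01 of 23885. The percentile was 88.0 for Tet2, 87.2 for Tet1, 80.0 for Dnmt3b and 78.0 for Dnmt1. The median autosomal window had a ratio of 0.717 to 0.751, depending on its length. A window was called high when its log2 ratio passed 0.5 and its interval lay above 1. By that rule all 6 windows were high, against 22.7% of autosomal windows of the length of Tet1, 22.9% for Tet2, 22.9% for Tet3, 22.7% for Dnmt1, 23.2% for Dnmt3a and 22.5% for Dnmt3b. None was low, the same rule turned round, against 48.3% of autosomal windows of the length of Tet1, 48.3% for Tet2, 48% for Tet3, 48.9% for Dnmt1, 47.7% for Dnmt3a and 49.3% for Dnmt3b. Dnmt1 and Dnmt3b were no longer called high when the windows were shortened by 5 kb at each end, at ratios of 1.41 and 1.28. The autosomal windows include gene-poor sequence, and no mm9 annotation was used here, so these ranks do not set the 6 genes against other genes.

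The authors' hMeDIP peaks, called with MACS, followed the same order in the share of each window they covered. Peaks are stretches where the caller found a local excess of fragments, so their number is not independent of the ratio. Dnmt3a held 32 peaks that covered 50.9% of the window, and Tet3 held 25 that covered 47.3%. Tet2 held 12 (18.3% covered), Tet1 10 (14.6%), Dnmt3b 5 (12.8%) and Dnmt1 4 (8.31%). Autosomes as a whole had 5.06% of their length in peaks. In peaks per 100 kb these were 29.4 in Dnmt3a, 25.5 in Tet3, 14.5 in Tet2, 13.2 in Tet1, 12.8 in Dnmt3b and 7.41 in Dnmt1, against 3.73 over all autosomes. Fewer peaks than Dnmt3a were found in 99.5% of autosomal windows of its length, and fewer than Tet3 in 98.5%. For Dnmt1 this share was 78.5%, and 53.0% of windows of its length had no peak.

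The peaks of Dnmt3a and Tet3 also tended to score higher and to be wider than those of the other genes. Scores below are the authors' own and serve only to rank peaks within their list of 92654. In Dnmt3a, 27 of 32 peaks scored above the list median of 85.72, and in Tet3 20 of 25 did. The counts were 6 of 12 in Tet2, 4 of 10 in Tet1, 1 of 5 in Dnmt3b and 1 of 4 in Dnmt1. Widths of at least 2 kb were reached by 10 peaks in Tet3, 8 in Dnmt3a, 1 in Tet2 and 1 in Tet1, that is 20 of the 88, against 13.4% of the whole list. Over the 88 peaks the median count was 34.5 hMeDIP fragments against 5 from input.

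The widest peak of any of the 6 genes lay in the middle of Tet3. It spanned chromosome 6, 83353201 to 83359609 (6409 bp), with a score of 738.34, 193 hMeDIP against 25 input fragments and a ratio of 5.62 (3.69 to 8.90). It was also the top score among these genes. In Dnmt3a the top score of 620.16 belonged to chromosome 12, 3872322 to 3874885, with 102 hMeDIP against 6 input fragments and a ratio of 12.4 (5.49 to 34.5). A second strong Dnmt3a peak adjoined it at 3868062 to 3872154, with a score of 529.76. The widest Dnmt3a peak, 3888607 to 3893685 (5079 bp), scored 543.05, held 145 hMeDIP against 19 input fragments and had its centre 85.1 kb from the 5′ edge. Whether it covers the internal start shown above was not examined, since that start is given on another build.

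In the other genes the leading peaks were smaller. The top and widest peak of Tet2 spanned chromosome 3, 133175418 to 133177753, with a score of 405.66, 85 hMeDIP against 10 input fragments and a ratio of 6.19 (3.21 to 13.4). Tet1 had its top score of 310.69 at chromosome 10, 62328654 to 62330409, with 60 hMeDIP against 5 input fragments, and its widest peak of 2499 bp at 62318714 to 62321212. The top and widest Dnmt1 peak was at chromosome 9, 20746240 to 20747885, with a score of 112.72, 43 hMeDIP against 8 input fragments. The top Dnmt3b score was 94.96, at chromosome 2, 153477540 to 153478334, with 22 hMeDIP against 2 input fragments, and the widest Dnmt3b peak was 153483884 to 153485629 (1746 bp). Neither Dnmt1 nor Dnmt3b held a peak among the 5% of the list with the highest scores, nor did Tet1. With 4, 5 and 10 peaks, these genes would hold few or none at that share, so the absence does not set them apart. Tet3 held 5 of these among its 25 peaks, Dnmt3a 6 among 32 and Tet2 1 among 12.

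**Figure D2:**
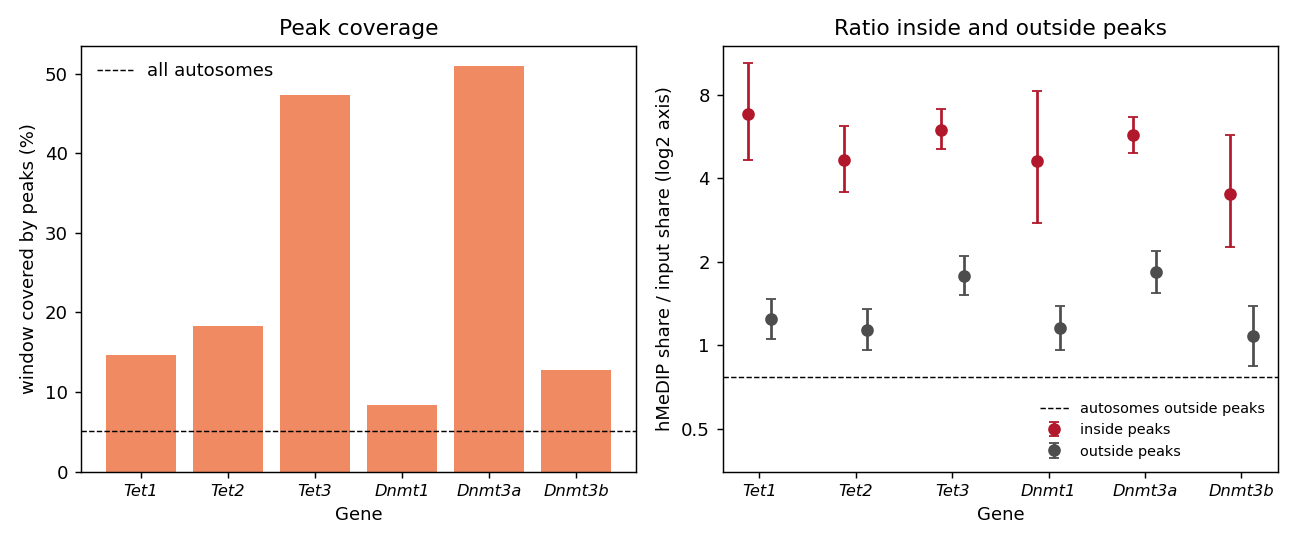
Left, share of each window covered by the authors' peaks (bars, percent) with the autosomal share of 5.06% as a dashed line. Right, ratio of hMeDIP share to input share (log2 axis, 95% counting interval) inside and outside peaks for each gene, with the autosomal ratio outside peaks (0.765) as a dashed line; Tet3 and Dnmt3a stand above the other genes outside peaks.

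The sequence between the peaks was raised as well in the high pair. Outside all peaks, Dnmt3a had 456 hMeDIP against 181 input fragments and a ratio of 1.83 (1.54 to 2.19). Tet3 had 521 and 213 fragments there and a ratio of 1.78 (1.52 to 2.10). The ratio outside peaks was 1.24 (1.05 to 1.46) in Tet1, 1.15 (0.961 to 1.39) in Dnmt1, 1.13 (0.957 to 1.35) in Tet2 and 1.08 (0.840 to 1.38) in Dnmt3b. All 6 values lay above the autosomal ratio outside peaks of 0.765, but many autosomal windows do. Among autosomal windows of the same length, Dnmt3a lay at percentile 99.4 outside peaks and Tet3 at 98.9. Tet1 lay at percentile 82.1, Dnmt1 at 77.3, Tet2 at 76.3 and Dnmt3b at 73.0. Inside peaks, which were chosen for their signal, the ratios were 6.83 in Tet1, 5.99 in Tet3, 5.72 in Dnmt3a, 4.67 in Tet2, 4.62 in Dnmt1 and 3.52 in Dnmt3b, with intervals that overlapped between Tet1 and each other gene. By point value, the order of the window ratios was that of the share covered by peaks, which were called on the same signal. It was not that of the ratio inside peaks, an order that is not settled where intervals overlap. Of the hMeDIP fragments, 78.4% of those in Dnmt3a and 71.9% of those in Tet3 lay in peaks, but 26.1% of those in Dnmt1.

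The windows were next compared with their surroundings, 100 kb on either side, which hold other genes. On GRCm38.p6 the nearest protein-coding genes are Slc25a16 and Ccar1 for Tet1, Cxxc4 and Ppa2 for Tet2, and Dguok and Bola3 for Tet3. They are S1pr2 and Eif3g for Dnmt1, Dtnb and Pomc for Dnmt3a, and Commd7 and Mapre1 for Dnmt3b, upstream gene first. Both neighbours of Tet2 lie further from it than those of any other member lie from theirs. The duplicate of Dnmt3b named Dnmt3b-ps1, also known as Dnmt3c, a methyltransferase of male germ cells in mice, lies between Dnmt3b and Mapre1, and reads from near-identical stretches of the pair may have been lost or misplaced in alignment. Dnmt3a stood 2.88 times above its flanks (2.50 to 3.33), with 2113 hMeDIP against 392 input fragments in the window and 1344 and 719 in the flanks. Tet3 stood 2.46 times above (2.13 to 2.84), and Tet2 1.94 times (1.63 to 2.30). Tet1 stood 1.28 times above (1.07 to 1.53), although on the minus strand alone the interval reached below 1 (1.15, 0.897 to 1.48). The upstream flank of this window holds the rest of the long form of Tet1. The long window stood 1.21 times above its own flanks (1.03 to 1.42), and its upstream flank, at 2.001, was not below its own ratio of 1.87.

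Dnmt1 and Dnmt3b did not stand apart from their 100 kb flanks taken as a whole. The Dnmt1 window was 0.9987 times its flanks (0.822 to 1.22), and the Dnmt3b window 1.04 times (0.825 to 1.31). With flanks of 50 kb these values were 0.902 (0.726 to 1.12) and 1.27 (0.989 to 1.64). The first 20 kb on either side of Dnmt3b were poorer than its window, at 0.763 (0.559 to 1.04) upstream and 0.801 (0.536 to 1.20) downstream. Among autosomal windows of the same length with their own flanks, the relative excess of Dnmt3a lay at percentile 99.9, that of Tet3 at 99.7 and that of Tet2 at 98.6. Tet1 lay at percentile 84.4, Dnmt3b at 59.9 and Dnmt1 at 54.6. Tet2 therefore ranked higher by its excess over the flanks than by its own ratio. Its flanks were the poorest of the 6, at a ratio of 0.983 (0.889 to 1.09) with 2 peaks, against 1.36 to 1.46 with 10 to 15 peaks at the other genes. On GRCm38.p6 the protein-coding neighbours of Tet2 are also the most distant of the 6. How much of each flank lies in genes was not measured, and its bearing on these values was not tested.

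**Figure D3:**
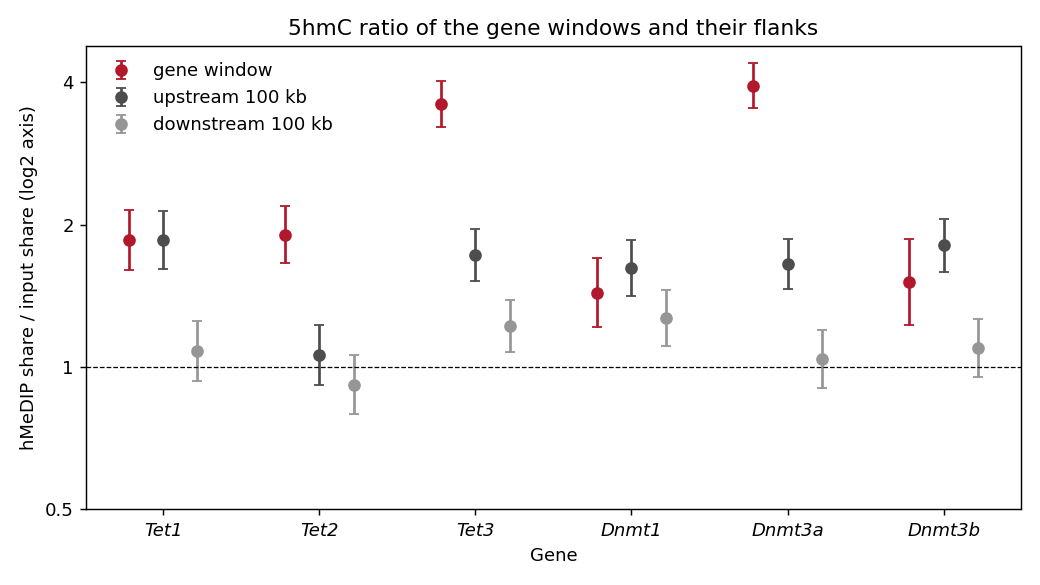
Ratio of hMeDIP share to input share (log2 axis) of each gene window (red), the 100 kb upstream (dark grey) and the 100 kb downstream (light grey), with 95% counting intervals. Tet3, Dnmt3a and Tet2 stand above both flanks, and the downstream flank is the lowest of the 3 regions at each gene.

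At every gene the upstream flank had the higher ratio of the pair of flanks. This comparison was made after the values had been seen. The upstream ratio was 1.85 and the downstream ratio 1.08 at Tet1, and 1.06 and 0.918 at Tet2. They were 1.72 and 1.22 at Tet3, and 1.62 and 1.27 at Dnmt1. Dnmt3a had 1.65 upstream and 1.04 downstream, and Dnmt3b 1.81 and 1.09. The upstream flank was 1.15 (0.940 to 1.42) to 1.72 (1.40 to 2.11) times the downstream flank, and the interval reached below 1 only at Tet2.

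The borders differed between genes. At Dnmt3a the ratio fell to 1.70 (1.29 to 2.25) in the first 20 kb upstream of the window and to 1.42 (1.04 to 1.95) in the first 20 kb downstream, and it was 0.794 (0.599 to 1.05) at 20 to 50 kb downstream. At Tet3 values above 2 were also found outside the window, with 2.56 (1.95 to 3.40) in the first 20 kb upstream, 2.41 (1.95 to 2.99) at 20 to 50 kb and 2.51 (1.85 to 3.44) in the first 20 kb downstream. The upstream values did not run on from the gene: the 5 kb steps next to the Tet3 window, 83410001 to 83415000 and 83415001 to 83420000, stood at 1.59 (0.858 to 3.08) and 0.958 (0.507 to 1.84), and high steps began again at 83420001. Further out the ratio was 0.965 upstream, at 50 to 100 kb, and 0.977 downstream, at 20 to 50 kb. Dnmt3b lay beside a poor stretch, with 0.763 (0.559 to 1.04) in the first 20 kb upstream and 0.801 (0.536 to 1.20) in the first 20 kb downstream, and its rich upstream sequence began further out, at 2.15 (1.70 to 2.75) for 20 to 50 kb. Dnmt1 was the reverse, with 2.23 (1.67 to 3.02) and 2.04 (1.53 to 2.75) in the first 20 kb upstream and downstream, both higher than the 1.44 of its window though with intervals that overlap that of the window.

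**Figure D4:**
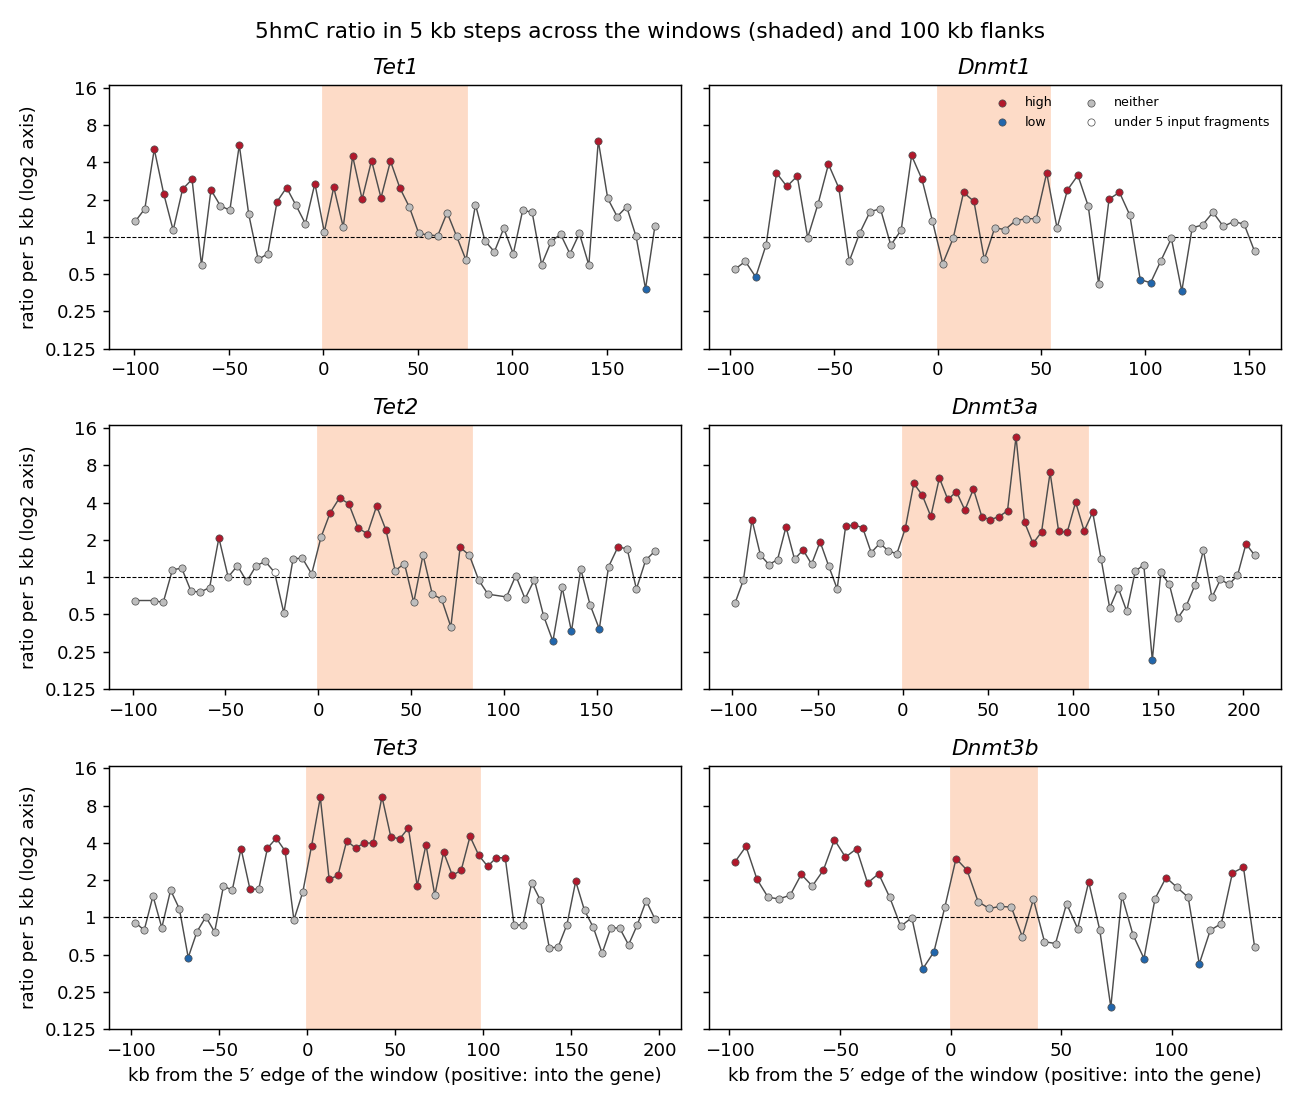
Ratio of hMeDIP share to input share (log2 axis) in 5 kb steps of each window (shaded) and its 100 kb flanks, by distance in kb from the window's 5′ edge. Red and blue points are steps called high or low, grey points neither and white points steps under 5 input fragments; steps with a count of 0 in a library are not drawn. Steps called high fill Dnmt3a and nearly all of Tet3, and with 1 exception in Tet2 they stop partway through Tet1 and Tet2.

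In steps of 5 kb the mark filled Dnmt3a and nearly all of Tet3, and part of Tet2 and Tet1. Steps were called by the same rule as windows and needed at least 5 input fragments. All 22 Dnmt3a steps and 19 of 20 Tet3 steps were high, against 16.9% of 439310 autosomal steps. Of the others, 8 of 17 steps were high in Tet2 and 7 of 16 in Tet1. The counts of 3 of 11 in Dnmt1 and 2 of 8 in Dnmt3b are small and not far from the autosomal share. No step of the 6 windows was low, against 31.4% of autosomal steps. Steps next to each other share peaks and are not independent.

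The highest step of the 6 genes was in Dnmt3a, 3870001 to 3875000, with 187 hMeDIP against 10 input fragments and a ratio of 13.6 (7.24 to 28.9). It lies on the adjoining strong peaks named above. The lowest Dnmt3a step, 3880001 to 3885000, still had 54 hMeDIP against 21 input fragments and a ratio of 1.87 (1.11 to 3.26). In Tet3 the highest step was 83365001 to 83370000, with 117 hMeDIP against 9 input fragments and a ratio of 9.46 (4.82 to 21.2). A similar value stood near the 5′ edge, where 83400001 to 83405000 held 154 and 12 fragments, a ratio of 9.34 (5.20 to 18.5). The lowest Tet3 step was 83335001 to 83340000, at 1.51 (0.923 to 2.55).

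The lower genes had a smaller range. Tet1 ran from 0.647 (0.357 to 1.16) at 62265001 to 62270000, the 3′ end, to 4.47 (2.53 to 8.52) at 62325001 to 62330000. Tet2 ran from 0.397 (0.121 to 1.17) at 133135001 to 133140000 to 4.37 (2.22 to 9.57) at 133195001 to 133200000. In Dnmt1 the lowest step was at the 5′ edge, 20760001 to 20765000, at 0.607 (0.318 to 1.15). The highest was at the 3′ edge, 20710001 to 20715000, at 3.28 (1.73 to 6.73). Dnmt3b ran from 0.699 (0.382 to 1.28) at 153505001 to 153510000 to 2.99 (1.77 to 5.32) at 153475001 to 153480000, the step at its 5′ edge.

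Along the gene, 3 of the lower genes carried the mark toward their 5′ side. Each window was split into 3 parts of equal length, a division made after the profiles had been seen. In Tet1 the ratio was 2.45 (1.89 to 3.21) in the 5′ part with 256 hMeDIP against 76 input fragments, 2.56 (1.98 to 3.34) in the middle part, and 0.960 (0.744 to 1.24) in the 3′ part with 145 and 110. In Tet2 it was 2.88 (2.24 to 3.75), 2.06 (1.62 to 2.64) and 1.16 (0.917 to 1.47) in the same order. In Dnmt3b it was 2.60 (1.82 to 3.79), 1.09 (0.753 to 1.59) and 1.003 (0.672 to 1.51). The 5′ part was 2.56 times the 3′ part in Tet1 (1.76 to 3.71), 2.49 times in Tet2 (1.75 to 3.55) and 2.59 times in Dnmt3b (1.49 to 4.51). The Dnmt3b value rests on few fragments and differed by strand, at 1.21 (0.536 to 2.69) on the plus and 5.53 (2.42 to 12.8) on the minus strand.

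The gradient was weaker in the high pair and was not seen in Dnmt1. Dnmt3a had 4.54 (3.78 to 5.48) in the 5′ part, 4.16 (3.43 to 5.08) in the middle and 3.07 (2.53 to 3.74) in the 3′ part. Its 5′ part was 1.48 times its 3′ part (1.13 to 1.94), with an interval that reached below 1 on the minus strand alone (1.34, 0.903 to 1.98). Tet3 peaked in the middle at 4.29 (3.53 to 5.25), with 3.73 (3.08 to 4.54) in the 5′ part and 2.81 (2.31 to 3.45) in the 3′ part. Its 5′ part was 1.32 times its 3′ part (0.998 to 1.75), with 0.977 on the plus and 1.81 on the minus strand. Dnmt1 ran the other way, with 1.28 (0.968 to 1.70), 1.19 (0.876 to 1.63) and 1.94 (1.43 to 2.66) from the 5′ to the 3′ part, the 5′ part being 0.660 times the 3′ part (0.431 to 1.01).

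**Figure D5:**
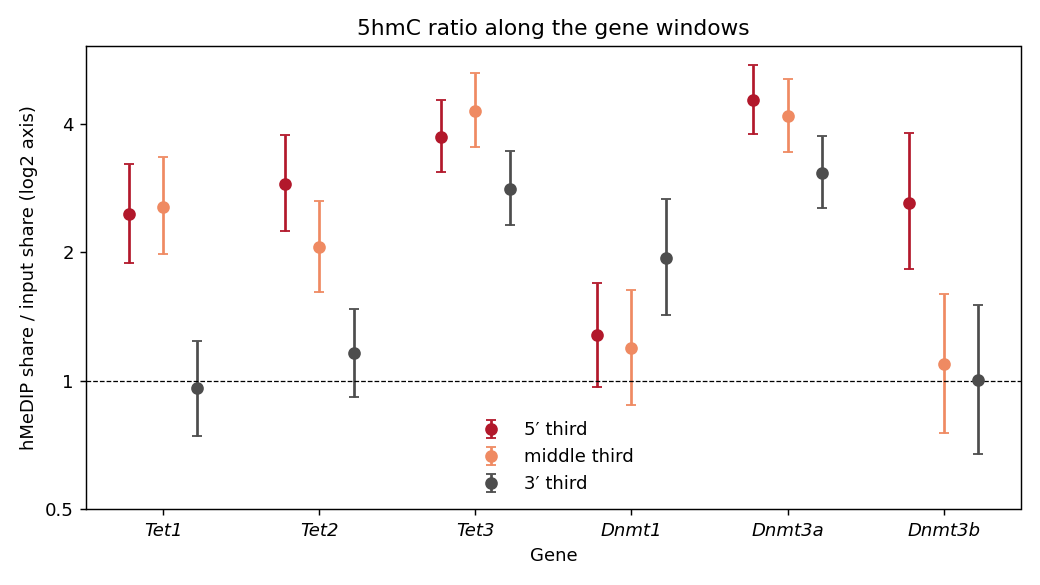
Ratio of hMeDIP share to input share (log2 axis, 95% counting interval) in 3 equal parts of each window, from the 5′ to the 3′ part. The 3′ part lies near 1 in Tet1, Tet2 and Dnmt3b, and near 3 in Tet3 (2.81) and Dnmt3a (3.07).

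Long peak-free stretches followed the same division, but they are no independent view of it, since peaks mark a local excess of the same fragments. The longest in Tet1 ran over the last 28.2 kb of the gene, 62267001 to 62295190, with 170 hMeDIP against 118 input fragments and a ratio of 1.05 (0.824 to 1.34). Tet2 had 19.1 kb without a peak at 133131240 to 133150342, at 0.712 (0.528 to 0.961), the only one of these stretches with an interval below 1. Dnmt1 had 21.6 kb in its middle, 20724590 to 20746239, at 1.11 (0.826 to 1.49), and Dnmt3b the last 14.6 kb of its window at 0.976 (0.658 to 1.46). The longest peak-free stretch of Dnmt3a was 11.1 kb and that of Tet3 7.51 kb. These kept ratios of 2.08 (1.45 to 3.03) and 1.71 (1.13 to 2.64).

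The 5′ edges themselves were covered by few fragments, and for Tet1 and Tet3 they may not be start sites. Dnmt1 and Dnmt3a have several listed starts, and which of them lies at the edge was not examined. In the 3 kb from 1 kb outside to 2 kb inside the edge, Dnmt3b had 44 hMeDIP against 10 input fragments, a ratio of 3.20 (1.59 to 7.14). This was 2.23 times the rest of the gene (1.06 to 5.12), and 2 peaks overlapped the zone. On the plus strand alone the Dnmt3b interval at the edge included 1 (2.62, 0.937 to 9.03). Tet3 had 76 hMeDIP against 16 input fragments at its edge, a ratio of 3.46 (1.999 to 6.35), close to the rest of the gene at 0.971 times (0.553 to 1.81). Dnmt3a had 17 hMeDIP against 4 input fragments, and Tet2 18 and 2, so that their ratios of 3.09 (1.01 to 12.6) and 6.55 (1.57 to 58.2) are imprecise. The Tet2 value was 2.67 (1.25 to 6.34) over a zone from 2 kb outside to 3 kb inside. Dnmt1 had 18 and 9 fragments at its edge, a ratio of 1.46 (0.621 to 3.68). Tet1 had 14 and 10 at the edge of the short form, a ratio of 1.02 (0.421 to 2.56), and 12 and 11 at that of the long form, a ratio of 0.794 (0.321 to 1.99). The Tet1 value at the short edge was 0.437 (0.130 to 1.33) with fragments of 150 bp. The main value at the short edge was 0.543 times the rest of the short window (0.221 to 1.39). The value at the long edge was 0.428 times the whole short window (0.171 to 1.09). Neither interval excluded equality.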

How the data were processed

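For each library the authors deposited its mapped positions, and for hMeDIP a peak list as well. CASAVA, Bowtie 1.0.0 and build mm9 are named in the submitters' processing notes; how reads were filtered is not stated there. A deposited line gives 350 bp of sequence, its strand and a count, read here, from the values, as 1 fragment and its number of reads (18 hMeDIP and 163 input lines had another length). Per the file headers, peaks were called with MACS, and the deposited score of each peak, from 50 upwards, is the authors'. The peak list's track line carries a numbered range after the library name, so whether other libraries entered the calling is not known.

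Fragments were counted by midpoint in Python 3.11.15 with numpy 2.4.6, pandas 2.3.3 and scipy 1.17.1. Ratios carry exact conditional (Clopper-Pearson) 95% intervals, and ratios of ratios the exact conditional interval of an odds ratio. Steps lay on a fixed 5 kb grid and belonged to a window by their centre; a median autosomal step held 17 input fragments. Ranks used autosomal windows with at least 50 input fragments per 100 kb. Named within each window were the highest and lowest step, the peak with the top score, the widest peak and the longest peak-free stretch; the second strong Dnmt3a peak, the second high Tet3 step, the 3 parts and the flank comparison were chosen after values were seen. The members and lists were chosen with earlier results of these data known. Strands and 5′ edges were taken from general knowledge of the genes. Start regions are from RefSeq (GRCm38.p6), where all 6 symbols matched. Further genes of the pathway were not measured, for want of mm9 positions.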

Additional observations from a re-analysis of the deposited data

Results flagged for a closer look

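Repeated reads at a position, which the comparisons did not use, were commoner in hMeDIP than in input. In the 6 windows together, 1.58% (95% interval 1.28 to 1.92) of hMeDIP positions held more than 1 read (96 of 6085), against 0.541% (0.248 to 1.02) of input positions (9 of 1663). Over the whole genome the shares were 1.33% and 0.384%. No hMeDIP position in these windows held over 3 reads and no input position over 2. Weighting each position by its reads changed none of the 6 window ratios beyond its interval.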

How the results depend on the processing

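No paired analysis was possible because each group is 1 library, and leaving out a replicate was not possible for the same reason. Alternatives gave 225 values, of which 193 lay within the interval of the reported value, or within 1.5 times the main count, and 32 moved. Some of the 193 could not move. The scaling described below leaves every rank as it was, and leaving out bins of extreme or no input removed nothing from the windows. Of the values whose interval excluded 1 (for ranks, percentile 50), 0 crossed it, though some of their intervals came to include 1. Of those whose interval held 1, some crossed it: the Tet2 flank ratio (1.30 on the scaling below, 1.08 with 200 kb flanks), the 5′ part over the 3′ part of Tet3 (0.977 on the plus strand), and gene over flank for Dnmt3b (0.938) and Dnmt1 (1.18) on the plus strand and for Dnmt1 with 150 bp fragments (1.005). The Tet1 edge did too (0.849 on the plus strand, 0.437 with 150 bp), as did that of the long form (1.05, scaled). Counted by interval, 15 changed side of 1, some by coming to include it and others by ceasing to. The Dnmt3a edge interval came to include 1 when weighted by reads (0.997 to 12.5). It also did on the plus strand alone (0.485 to 25.1) and the minus strand alone (0.776 to 34.2). So did those of the Tet2 edge on the plus strand (0.654 to 230) and the shortened Dnmt3b window (0.9989 to 1.65). Scaling to the fragments outside peaks multiplies every ratio by 1.32. The window ratios became 2.45 for Tet1, 2.51 for Tet2, 4.75 for Tet3, 1.89 for Dnmt1, 5.18 for Dnmt3a and 1.99 for Dnmt3b. The flank ratios became 1.92 for Tet1, 1.30 for Tet2, 1.93 for Tet3, 1.90 for Dnmt1, 1.80 for Dnmt3a and 1.92 for Dnmt3b, and gene over flank values are untouched. For Dnmt3a the window ratio was 3.32 on the plus strand and 4.53 on the minus strand, and its value over the flanks 2.29 and 3.54. The 5′ part over the 3′ part was 0.977 and 1.81 for Tet3 and 1.21 and 5.53 for Dnmt3b on these strands; the cause of the strand differences was not tested. With flanks of 50 kb the flank ratio was 1.29 for Tet1, 1.999 for Tet3, 1.59 for Dnmt1 and 1.19 for Dnmt3b, and Tet3 stood 1.80 times above its flanks; with 200 kb the Dnmt3a flank ratio was 1.24. At least 1 kb from every peak the ratio of Dnmt3a was 2.21. Steps of 10 kb gave 32 high of 44, against 20.5% of autosomal steps, since there are fewer of them. Among the 46327 peaks with the highest scores, 59 of the 88 peaks were kept. No 10 kb bin of extreme or no input lay in the windows. Counting depth limits the 5′ edges, where the input held 2 to 16 fragments, and single peaks, 7 of which held no input fragment.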
